A study of Mus musculus with 24 samples.

Results

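Genes of Schwann cells and enteric glia were followed through 24 mRNA libraries of dispersed mouse pancreatic islet cells. The list held 37 symbols chosen by name, and 35 of them had a row among the 41549 gene identifiers of the count table. The symbols Postn2 and Kcna1b matched no row. Enough counts for a test were found for 30 genes, out of 15916 genes tested in all. Sox8, Phox2a, Vip, Fabp7 and Art3 fell under the filter on low counts and are described by their counts. Wild-type islets were dispersed, and an antisense oligonucleotide (ASO) was introduced by transfection, either the control (Ctr) or αGlu, which targets the 5' fragment of tRNA-Glu(CTC). They were then kept with albumin vehicle (BSA) or with palmitate (PA), a saturated fatty acid. Each of the 4 groups (Ctr BSA, αGlu BSA, Ctr PA and αGlu PA) held 6 libraries, 3 in each of 2 batches. Every group was therefore wild type and carried an ASO, and untransfected cells were not analysed here. Per the study's methods the mice were young adults of both sexes, and the groups of each replicate came from the same animal, but the labels do not say which libraries these are. The tests therefore take all libraries as independent.

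Schwann cells are the glia of peripheral nerves, and in the pancreas they accompany the autonomic fibres and form a thin sheath around islets. Enteric glia are their counterparts in the gut wall. Both arise from the neural crest under the transcription factor Sox10, take survival signals from neuregulin through the receptor Erbb3, and carry the calcium-binding protein S100b and the intermediate filament Gfap. Myelinating Schwann cells also make Mbp and Pmp22, whereas non-myelinating cells keep adhesion proteins such as Cdh19 and Chl1. Dispersed islets are mainly endocrine cells, and any glia in them are a minority.

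Of the agents that set the groups apart, the αGlu ASO is short enough to be read in full, and the sequence of the Ctr ASO is not given here. The ASO of the αGlu groups and the stretch it targets are given below 5' to 3', with the bases of the target that pair with the ASO in capitals, as found by matching its reverse complement.
αGlu ASO: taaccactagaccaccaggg
target: tCCCTGGTGGTCTAGTGGTTA
The ASO covered 20 of the 21 bases listed for the target. Only its letters are shown, without the chemical modification of the nucleotides.

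Library totals ran from 18214719 to 35001979 counts. Levels are given as CPM, a gene's counts scaled to a common library size after TMM normalisation, and levels of different genes are set side by side only as deposited TPM, which scale transcripts within a library and account for gene length. Following the study's own rule, a gene was called when its fold change was above 2 and its unadjusted p below 0.05 in edgeR's quasi-likelihood test. Adjusted p-values (Benjamini-Hochberg over all 15916 genes) are given beside the calls. In these bulk libraries, fewer cells of a type and less RNA per cell cannot be told apart.

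The glial genes were unevenly spread over the control libraries before any comparison was made. Of the 30 tested genes, 27 had their highest Ctr BSA value in library S9 or S21, and 19 had their lowest in S17. The median gene stood 2.12 log2 units above its mean over all libraries in S9, 2.33 above it in S21 and 0.591 below it in S17. Markers of other cells stood differently in these libraries. S9 had the highest summed acinar level of its group (17210 CPM) and the lowest macrophage level (77.8 CPM), whereas S21 had the highest macrophage level (364 CPM) and the next to lowest acinar level (382 CPM). Their part in the glial values was not tested. Among Ctr PA libraries, S15, S19 and S23 of batch 2 stood above the genes' means over all libraries (by 0.739, 1.51 and 1.29 log2 units). S3, S7 and S11 of batch 1 lay below these means (−0.344, −0.0475 and −0.0838). In αGlu PA all 6 libraries were below the genes' means, between −1.82 in S12 and −0.472 in S4. Results that rest on S9 and S21 are given with and without them. These libraries were singled out for their high glial levels, so leaving them out lowers the Ctr BSA level of these genes by construction.

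**Figure D1:**
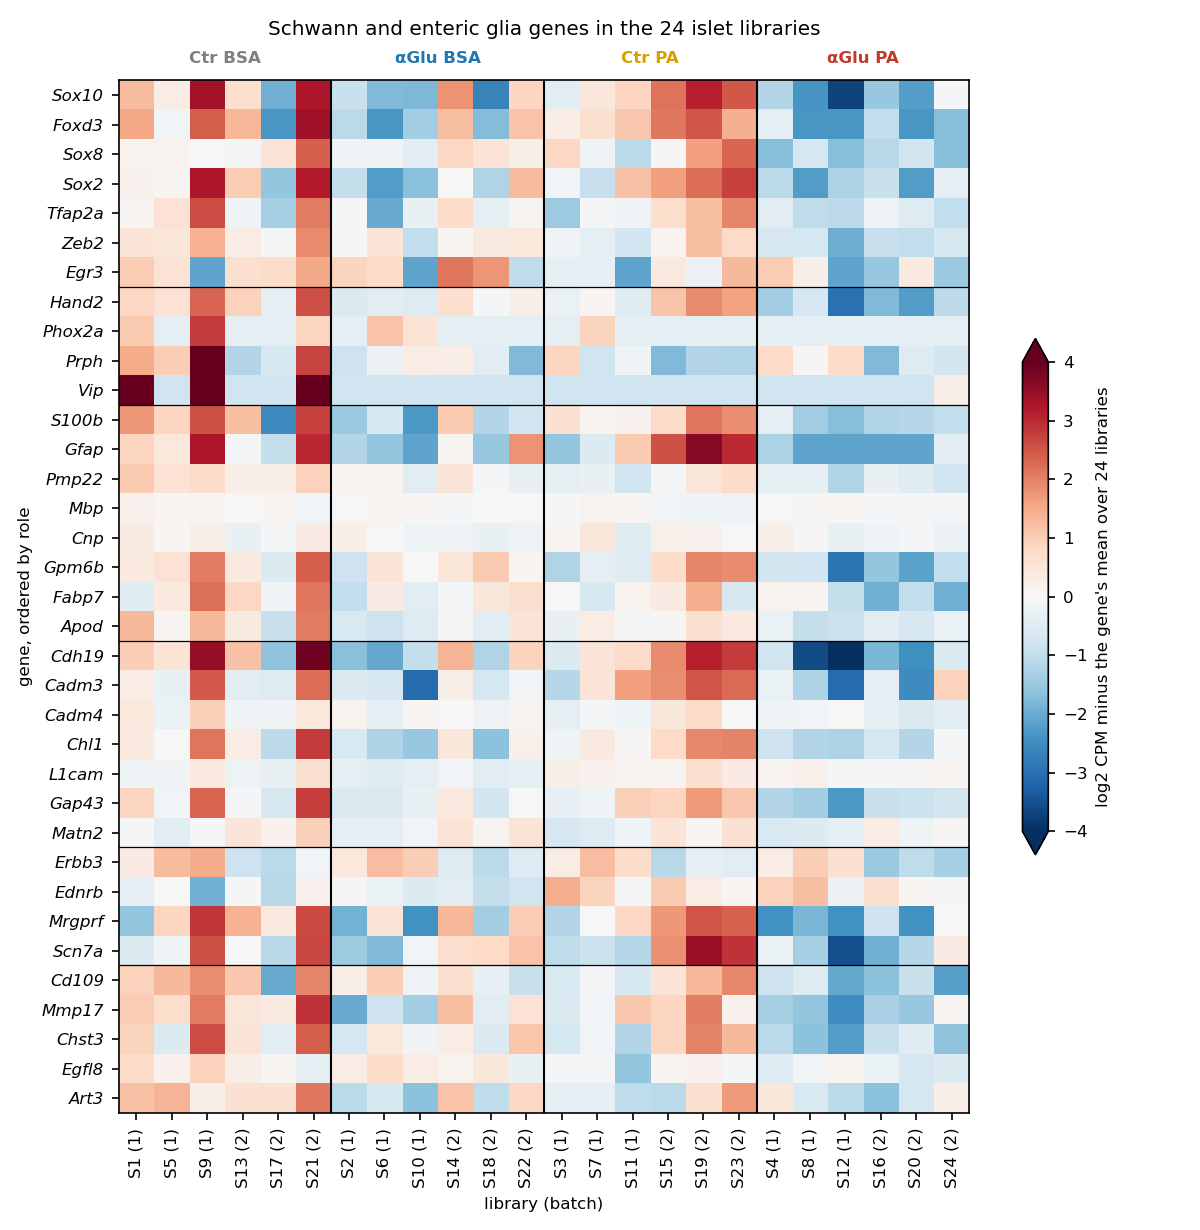
Heat map of the 35 glial genes (rows, ordered by role with lines between roles) in 24 libraries (columns, by group, batch in parentheses), coloured by log2 CPM minus the gene's mean over all libraries, with colours saturated beyond 4 units. Red columns stand out at S9 and S21 in Ctr BSA and at S15, S19 and S23 in Ctr PA, the αGlu PA block is mostly blue, and Mbp is nearly white throughout.

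Per length, the genes of the list spanned a wide range of levels in Ctr BSA cells. Mbp, the myelin basic protein gene, had the highest level at 39.4 ± 4.32 TPM (SD, n = 6). It was followed by Erbb3, the neuregulin receptor, at 15.7 ± 11.8 TPM, Apod, a lipid carrier, at 14.4 ± 9.66 TPM, and Cadm4, a Schwann cell adhesion molecule, at 12.9 ± 4.89 TPM. These last levels did not differ beyond their spread. The defining glial genes were lower, with S100b at 4.12 ± 3.24 TPM, Sox10 at 3.63 ± 4.05 TPM and Gfap at 0.736 ± 0.872 TPM, and their SDs were close to or above their means. The spread between libraries differed greatly between genes. The SD of CPM was 6.37% of the mean for Mbp and 22.5% for Pmp22, against 108% for Sox10, 115% for Cdh19 and 115% for Gfap. Outside the list, Mag, a myelin-associated adhesion protein, had no count in 2 of the 6 Ctr BSA libraries. The markers that define glia were thus present at low levels, and the most abundant gene of the list, Mbp, hardly varied between libraries.

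In palmitate, the αGlu ASO was accompanied by lower levels of most glial genes. Of the 30 tested genes, 18 were called lower in αGlu PA than in Ctr PA, against 0.773% of all genes tested, and 0 were called higher (0.17% of all genes). The log2 fold change was below 0 for 28 of the 30 genes, and its median was −1.91, against −0.00438 over all genes. Groups did not overlap for 5 genes, Foxd3, Hand2, S100b, Cdh19 and Gap43, each lower in αGlu PA (0.163% of all genes tested). No gene passed an adjusted p of 0.05 in edgeR, where the smallest adjusted p of the list was 0.252 and 21 genes had an unadjusted p below 0.05. DESeq2's Wald test put 8 of them past that threshold (Sox10, Foxd3, Hand2, Gfap, Cdh19, Gap43, Mrgprf and Mmp17) among 30 genes overall. At least 11 of the 37 symbols had been named in the study's text from these libraries, so their direction is not independent evidence. All 11 were tested and called lower. Of the other 19 tested genes, 7 were called lower (Sox10, Sox2, Tfap2a, Zeb2, Cdh19, Chl1 and Scn7a), and the median log2 fold change of these 19 was −0.440.

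Transcription factors of the neural crest and glia made up the group with the most calls, with 5 of 6 tested genes lower in αGlu PA and a median log2 fold change of −2.54. Sox10, which specifies glia and stays on in Schwann cells, ran from 0.638 to 8.5 CPM (median 3.04) in Ctr PA and from 0 to 0.887 CPM (median 0.204) in αGlu PA. The difference was −3.43 ± 0.87 on the log2 scale (± SE, adjusted p = 0.354). The groups overlapped at their edges, since the highest αGlu PA library, S24, passed the lowest Ctr PA library, S3. Foxd3, a neural crest factor, was between 0.39 and 2.1 CPM (median 0.824) in Ctr PA and between 0 and 0.214 CPM (median 0.0202) in αGlu PA, where 3 of 6 libraries had no count. The groups did not overlap, and the log2 fold change was −3.73 ± 0.96 (adjusted p = 0.354), resting on 11 counts in αGlu PA against 166 in Ctr PA. Sox2, a progenitor factor that glia retain, differed by −3.39 ± 0.94 (0.109 to 2.26 CPM in Ctr PA against 0 to 0.202 CPM). Zeb2, a regulator of Schwann cell differentiation that other islet cells also express, differed by −1.16 ± 0.33, with 3.87 to 15.2 CPM in Ctr PA against 1.65 to 4.19 CPM. Tfap2a, another neural crest factor, differed by −1.70 ± 0.74, and its call was lost without S20, S23 or S24. The call of Zeb2 was lost without S19. Egr3, an early growth response factor, was not called (−0.06 ± 0.88). Sox8, a relative of Sox10 below the filter, had 69 counts over the 6 Ctr PA libraries and 5 over those of αGlu PA.

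The positions of these genes are given on GRCm38 from GENCODE. Sox10 lies on the minus strand of chr15:79154908-79165240, Foxd3 on the plus strand of chr4:99656299-99658622 and Sox2 on the plus strand of chr3:34650405-34652461. Since Sox10, Sox8 and Sox2 are themselves factors of the SOX family, the RefSeq promoter windows (GRCm38.p6, 250 bases before to 50 after the start) were searched for the letters ACAAAG and ACAATG, which SOX factors recognise, on both strands. Matches to the motifs cannot overlap each other. A window was available for 25 genes of the list, and 10 of them (40.0%) held either motif in at least 1 window, against 31.7% of the 27025 genes in the table. Some genes have several windows. Counted by window, the share was 28.6% of the 35 windows of the list and 28.6% of all 32851 windows, so there was no excess. Among the genes called lower in αGlu PA the share was 5 of 12 (41.7%), and all of these matches were to ACAAAG (31.2% of their windows, against 18.7% of all windows). ACAATG was in 0% of their windows, against 12.6% of all windows. Either motif was thus in 31.2% of their windows, against 28.6% of all windows. A match is only a run of letters. Promoters of 4 called genes are shown 5' to 3' in gene direction, with matches in capitals (CTTTGT is ACAAAG on the other strand). Sox2, Chl1 and Chst3 held a match and Foxd3 held none of these letters in its window.
Sox2 (chr3:34649745-34650044, plus strand): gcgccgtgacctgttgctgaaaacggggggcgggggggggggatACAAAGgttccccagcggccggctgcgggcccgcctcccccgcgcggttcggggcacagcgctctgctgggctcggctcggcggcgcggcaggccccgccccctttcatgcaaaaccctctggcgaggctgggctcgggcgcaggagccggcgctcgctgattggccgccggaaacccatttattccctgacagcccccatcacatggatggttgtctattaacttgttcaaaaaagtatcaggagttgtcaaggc
Chl1 (chr6:103510626-103510925, plus strand): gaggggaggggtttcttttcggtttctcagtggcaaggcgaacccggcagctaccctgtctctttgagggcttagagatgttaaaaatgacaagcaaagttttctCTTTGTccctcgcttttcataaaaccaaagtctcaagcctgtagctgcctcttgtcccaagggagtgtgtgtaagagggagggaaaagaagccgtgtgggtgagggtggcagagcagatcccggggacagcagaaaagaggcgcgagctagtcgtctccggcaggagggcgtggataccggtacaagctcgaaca
Chst3 (chr10:60219211-60219510, minus strand): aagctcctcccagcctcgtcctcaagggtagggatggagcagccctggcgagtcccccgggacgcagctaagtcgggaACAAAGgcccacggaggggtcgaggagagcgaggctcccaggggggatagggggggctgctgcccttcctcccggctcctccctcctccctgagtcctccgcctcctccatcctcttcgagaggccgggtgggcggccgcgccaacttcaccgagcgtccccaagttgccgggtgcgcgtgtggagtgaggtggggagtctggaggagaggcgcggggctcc
Foxd3 (chr4:99656049-99656348, plus strand): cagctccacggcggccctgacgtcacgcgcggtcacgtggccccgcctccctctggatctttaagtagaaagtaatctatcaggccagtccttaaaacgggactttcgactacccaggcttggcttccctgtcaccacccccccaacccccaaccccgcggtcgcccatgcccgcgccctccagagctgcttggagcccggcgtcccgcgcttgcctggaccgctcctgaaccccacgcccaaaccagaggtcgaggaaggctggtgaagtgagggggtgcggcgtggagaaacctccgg

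Genes for glial proteins of the cytoskeleton, of myelin and of lipid transport ranged widely, with 3 of 7 tested genes called lower in αGlu PA. Their log2 fold changes ran from −4.86 to 0.03, with values between for genes that were not called. S100b, the calcium-binding protein by which Schwann cells are usually stained, ran from 0.693 to 3.06 CPM (median 1.04) in Ctr PA and from 0.143 to 0.458 CPM (median 0.237) in αGlu PA. The groups did not overlap, and the log2 fold change was −2.38 ± 0.65 (adjusted p = 0.443). Gfap, the intermediate filament of non-myelinating Schwann cells and enteric glia, ran from 0.0354 to 3.97 CPM in Ctr PA, with the 3 batch 2 libraries on top. In αGlu PA it had no count in 4 of 6 libraries and at most 0.161 CPM, and it differed by −4.86 ± 1.17 (adjusted p = 0.304), which rests on 6 counts in the lower group. Gpm6b, a membrane proteolipid, differed by −2.07 ± 0.56 (0.886 to 8.42 CPM in Ctr PA against 0.215 to 1.25 CPM). The myelin genes of the list were not called. Mbp did not follow Sox10 over the libraries (Pearson r of −0.346 after removing group and batch means). Whether the levels of these myelin genes came from glia was not tested. Mbp ran from 103 to 132 CPM in Ctr PA and from 113 to 126 CPM in αGlu PA, a log2 difference of 0.03 ± 0.04. Cnp, an enzyme of non-compact myelin, differed by −0.17 ± 0.13, and Pmp22, a tetraspan protein of compact myelin, by −0.59 ± 0.23. Apod, which Schwann cells secrete after injury, differed by −0.74 ± 0.32 and was not called either. Fabp7, a fatty acid carrier of immature glia, was under the filter, with 44 counts in Ctr PA and 18 in αGlu PA.

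**Figure D2:**
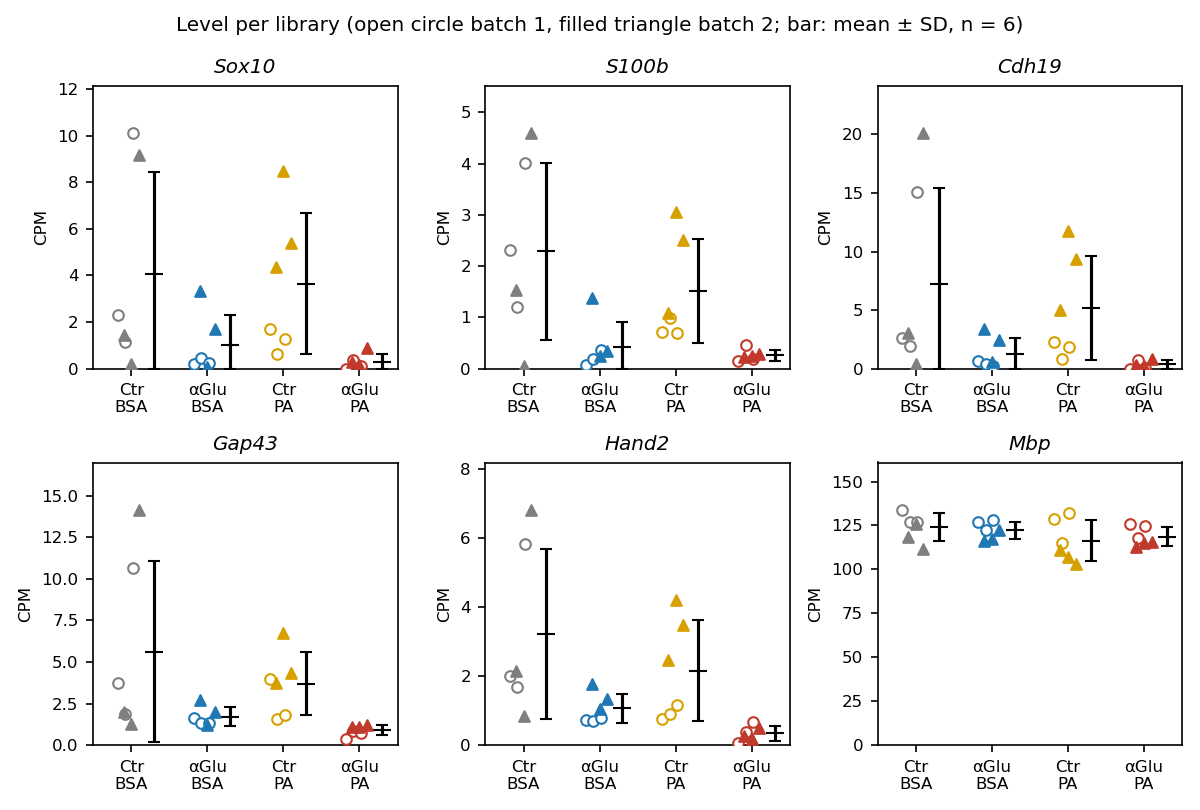
CPM per library of Sox10, S100b, Cdh19, Gap43, Hand2 and Mbp in the 4 groups (open circles batch 1, filled triangles batch 2), with the mean ± SD of the 6 libraries beside them and the lower bar ended at 0. S100b, Cdh19, Gap43 and Hand2 lie lower in every αGlu PA library than in any Ctr PA library, Sox10 overlaps at its edges, and Mbp stays between 103 and 134 CPM in all groups.

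Adhesion and axon contact proteins were called lower for 4 of 7 genes in αGlu PA, and their median log2 fold change was −1.80. Cdh19, a cadherin of the Schwann cell precursor, was between 0.851 and 11.8 CPM (median 3.62) in Ctr PA and between 0 and 0.846 CPM (median 0.24) in αGlu PA. All αGlu PA libraries were below all Ctr PA libraries, by a narrow margin, and the log2 fold change was −3.59 ± 0.85 (adjusted p = 0.299). Gap43, a growth-associated protein of axons and non-myelinating Schwann cells, ran from 1.59 to 6.75 CPM (median 3.86) in Ctr PA and from 0.359 to 1.21 CPM (median 0.962) in αGlu PA. It did not overlap between the groups either, and it differed by −2.03 ± 0.49 (adjusted p = 0.299). Chl1, an adhesion molecule of the L1 family, differed by −1.80 ± 0.51, with 2.87 to 13 CPM in Ctr PA against 1.29 to 3.1 CPM. Cadm3, which binds the Schwann cell protein Cadm4 across the axon contact, differed by −2.33 ± 0.74 and overlapped (0.213 to 3.57 CPM against 0 to 1.13 CPM). The remaining genes of this role were not called. Cadm4 differed by −0.44 ± 0.20, L1cam, which neurons and endocrine cells also carry, by −0.21 ± 0.13 and Matn2, a matrix protein of peripheral nerve, by −0.22 ± 0.13.

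Among receptors and channels, 2 of 4 tested genes were called lower in αGlu PA. Mrgprf, an orphan G-protein coupled receptor, ran from 0.106 to 2.22 CPM (median 0.954) in Ctr PA and from 0 to 0.322 CPM (median 0.0193) in αGlu PA, and differed by −3.60 ± 0.92 (adjusted p = 0.354) and 13 counts in the lower group. Scn7a, a sodium channel of non-myelinating Schwann cells, differed by −2.49 ± 0.83 (0.319 to 9.41 CPM against 0 to 1.01 CPM). Its Ctr PA range came from the batches, with means of 0.358 CPM in batch 1 and 6.24 CPM in batch 2. Both signalling receptors stayed uncalled. Erbb3 ran from 11.3 to 57.3 CPM in Ctr PA and from 8.7 to 47.9 CPM in αGlu PA, and it differed by −0.39 ± 0.21. Whether its level came from glia was not tested. Ednrb, the endothelin receptor that enteric crest cells need, differed by −0.21 ± 0.31.

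Matrix and cell surface genes were called lower for 3 of 4 tested genes, with a median of −2.10. Cd109, a GPI-anchored surface protein, ran from 1.08 to 6.73 CPM in Ctr PA and from 0.322 to 1.16 CPM in αGlu PA, and it differed by −2.02 ± 0.55. Mmp17, a membrane-anchored metalloproteinase, ran from 0.602 to 4.13 CPM and from 0.108 to 1.01 CPM, and it differed by −2.18 ± 0.55. Chst3, a chondroitin sulfotransferase, ran from 0.0797 to 1.31 CPM and from 0 to 0.175 CPM, and it differed by −2.54 ± 0.75. All of these ranges overlapped. Egfl8, which codes for a secreted protein with EGF-like repeats, was not called (−0.21 ± 0.35), and Art3, an ADP-ribosyltransferase under the filter, had 34 counts in Ctr PA and 18 in αGlu PA.

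Of the autonomic and enteric neuron genes on the list, Hand2 was lower in αGlu PA. Hand2, a factor of noradrenergic and enteric neurons, ran from 0.757 to 4.21 CPM (median 1.82) in Ctr PA and from 0.0717 to 0.656 CPM (median 0.317) in αGlu PA. It had the smallest p of the list in this comparison, with no overlap and a log2 fold change of −2.51 ± 0.52 (adjusted p = 0.252). Prph, the intermediate filament of peripheral neurons, was not called (0.68 ± 0.96), with 19 counts in Ctr PA and 32 in αGlu PA. Phox2a, a factor of autonomic neurons, had 3 counts in Ctr PA and 0 in αGlu PA, and Vip, a neuropeptide of enteric and pancreatic neurons, had 0 and 2, so neither gives a fold change.

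**Figure D3:**
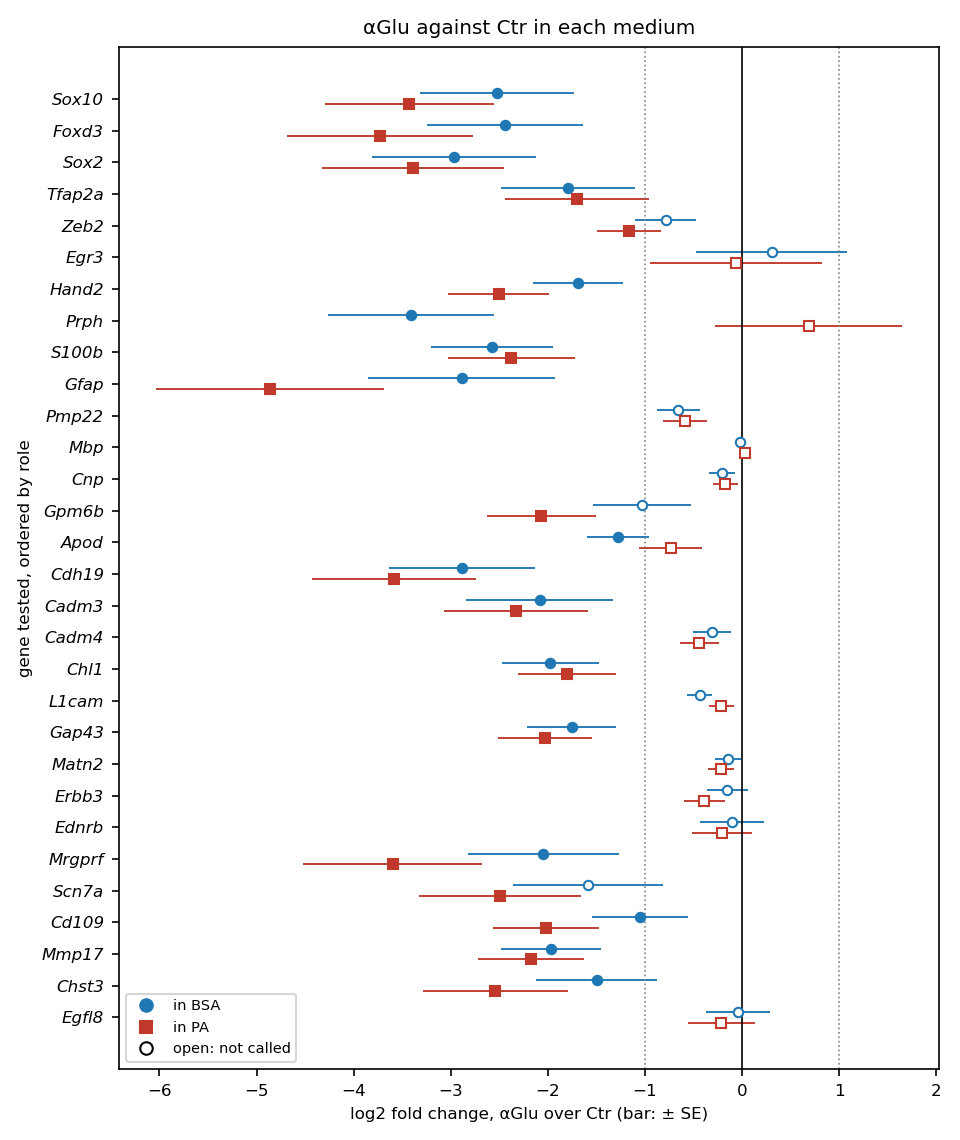
Log2 fold change of αGlu over Ctr in BSA (blue circles) and in PA (red squares) for the 30 tested genes by role, with ± SE bars, filled where the gene was called, and dotted lines at fold changes of 2. Most genes lie left of 0 in both media, Mbp, Cnp and Matn2 lie near 0, and Prph is far left in BSA and right of 0 in PA.

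The calls in palmitate held without any single library for all 18 genes except Tfap2a and Zeb2, and the count of calls stayed between 17 and 18. They were unequal between batches. Batch 1 alone gave 10 calls (0.551% of its genes in either direction) with a median of −0.618, and batch 2 alone gave 20 calls (1.62%) with a median of −2.31. In batch 1, Zeb2, Gpm6b, Cadm3, Scn7a, Cd109 and Chst3 were no longer called, and Sox2 and Tfap2a fell under its filter. The difference between the batches was tested gene by gene. The αGlu effect in PA was lower in batch 2 than in batch 1 for 4 genes (0.829% of all genes tested), namely Scn7a (−3.47 ± 1.49), Gpm6b (−2.68 ± 0.99), Cd109 (−2.35 ± 0.96) and Hand2 (−2.09 ± 0.98), and none had an adjusted p below 0.05 in edgeR.

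In vehicle, the same comparison called 17 genes lower with αGlu (0.641% of all genes tested) and 0 higher (0.145%). The median log2 fold change was −1.54, and 29 of 30 genes were below 0. No gene passed an adjusted p of 0.05 in edgeR, where the smallest adjusted p was 0.446 and 20 genes had an unadjusted p below 0.05, and DESeq2 put 1 gene, S100b, past it. Groups overlapped for every gene (0.0377% of all genes did not overlap and were lower). S100b ran from 0.046 to 4.6 CPM (median 1.93) in Ctr BSA and from 0.0697 to 1.38 CPM (median 0.289) in αGlu BSA, and differed by −2.57 ± 0.63 (adjusted p = 0.446). Sox10 ran from 0.184 to 10.1 CPM (median 1.89) and from 0.0794 to 3.35 CPM (median 0.337), and differed by −2.52 ± 0.80. The Ctr BSA range of both genes was set by S17 at its foot and by S9 and S21 at its top.

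The vehicle calls were fewer without S9 and S21, and leaving these libraries out moves the αGlu effect in BSA towards 0 by construction. Without them 2 genes were still called lower, S100b and Mmp17, with 0.396% of all genes called in either direction, and the median was −0.547 with 27 of 31 genes below 0. Leaving out S9 alone gave 13 calls. Batch 1, which holds S9, gave 15 calls when fitted alone (0.941% of its genes), and batch 2, which holds S21, gave 2, Hand2 and Gap43 (0.579%). The difference between the batches passed the call for Gfap (3.91 ± 1.88, higher in batch 2; 0.352% of all genes tested), with no adjusted p below 0.05 in edgeR.

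The calls of the media coincided for 15 genes, 83.3% of the calls in PA and 88.2% of those in BSA. The media share no library, but both comparisons came from the same fit with a common spread per gene. Groups of each replicate also shared an animal per the study's methods, so the overlap is not independent agreement. Zeb2, Gpm6b and Scn7a were called in PA alone, and Prph and Apod in BSA alone. Of these, only Prph passed the call in a test of the difference between the media itself. Its adjusted p there was 0.999 in edgeR, and most of its Ctr BSA counts were in S9. Apod was 3.68 to 29.6 CPM (median 13.1) in Ctr BSA and 3.86 to 9.92 CPM (median 5.02) in αGlu BSA, and differed by −1.28 ± 0.32 (adjusted p = 0.446).

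Taking both media in 1 contrast, 18 genes were called lower (0.597% of all genes tested), and 11 of them had an adjusted p below 0.05 in edgeR, out of 29 genes lower at that threshold in the whole table (0.182%). These 11 were Sox10, Foxd3, Sox2, Hand2, S100b, Gfap, Cdh19, Chl1, Gap43, Mrgprf and Mmp17. Their log2 fold changes ran from −3.88 ± 0.75 for Gfap to −1.89 ± 0.35 for Chl1. The adjusted p was 0.0151 for S100b (−2.48 ± 0.45), Cdh19 (−3.24 ± 0.56), Gap43 (−1.89 ± 0.33), Hand2 (−2.10 ± 0.35) and Mmp17 (−2.07 ± 0.38), and 0.0184 for Sox10 (−2.98 ± 0.58). The 11 genes ranged in role from crest factors to a metalloproteinase, and the myelin genes of the list were not among them. Mbp (0.01 ± 0.03) and Cnp (−0.19 ± 0.09) changed little, whereas Pmp22 had lower means with αGlu. With vehicle, the mean of Pmp22 was 4.12 CPM for αGlu against 6.45 CPM for Ctr. With palmitate, these means were 2.71 CPM and 4.15 CPM, and the ranges overlapped in both media. The number of genes past the adjusted threshold depended on the libraries and the fit. It was 0 without S9 and S21, 0 in either batch alone and 0 without the batch term, whereas it was 17 without S17 and 18 in DESeq2. Leaving out S9 and S21 moves this contrast towards 0 by construction. Of the 18 calls by fold and unadjusted p, 17 remained in each fit without a single library and in the fit without S9 and S21, and Apod was lost in some of these. Other genes, such as Art3, Prph and Zeb2, were called in some of them instead.

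Palmitate itself was compared with vehicle in each transfection. In Ctr cells 1 gene was called lower (5.06% of all genes tested) and 1 higher (0.854%). Prph fell, from 0.0395 to 7.93 CPM (median 0.542) in Ctr BSA to between 0 and 0.39 CPM (median 0.0563) in Ctr PA. It differed by −3.87 ± 0.86 (adjusted p = 0.00138), with 192 of its 266 Ctr BSA counts in S9. The call of Prph was kept without S9 alone and lost without S9 and S21, whose removal lowers its Ctr BSA level by construction. Ednrb rose, from 0.702 to 3.25 CPM (median 2.5) to between 2.71 and 7.94 CPM (median 4.47), and it differed by 1.10 ± 0.32 (adjusted p = 0.0118). At an adjusted p below 0.05 the list held 3 lower genes, Prph, Pmp22 and Apod (14.5% of all genes), and 1 higher, Ednrb (15.5%). Pmp22 differed by −0.67 ± 0.22 and Apod by −0.83 ± 0.31. The median of the list was −0.628 (0.00742 over all genes), but it was 0.184 without S9 and S21 and 0.103 in batch 2 alone. Leaving out S9 and S21 moves this median upwards by construction.

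The palmitate comparison in Ctr cells was also made within each batch. In batch 1 alone 16 of 28 tested genes were called, 15 of them lower (5.79% of all genes in that fit called lower or higher), and in batch 2 alone 0 of 32 were called (5.43%). A test of the difference between the batches called 8 genes higher in batch 2 (1.02% of all genes tested), Scn7a (4 ± 1.33), Gfap (3.81 ± 1.53), Tfap2a (2.95 ± 1.26), Chst3 (2.61 ± 1.19), Gpm6b (2.26 ± 0.90), Cd109 (2.19 ± 0.88), Hand2 (1.79 ± 0.84) and Pmp22 (1.21 ± 0.39), none with an adjusted p below 0.05 in edgeR. Sox10 shows the pattern in its levels, with batch means of 4.52 and 3.60 CPM in Ctr BSA and of 1.21 and 6.09 CPM in Ctr PA. What a batch stands for is not given in the labels.

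In αGlu cells palmitate gave 6 genes lower (4.74% of all genes tested) and 0 higher (0.823%). They were Chst3 (−2.05 ± 0.77), Mrgprf (−2.20 ± 0.97), Gpm6b (−1.64 ± 0.55), Hand2 (−1.57 ± 0.52), Cd109 (−1.53 ± 0.54) and Zeb2 (−1.08 ± 0.33). Hand2 did not overlap between the groups (0.705 to 1.77 CPM in αGlu BSA, 0.0717 to 0.656 CPM in αGlu PA; 3.95% of all genes did not overlap and were lower). At an adjusted p below 0.05 there were 5 lower genes (14.2% of all genes), all of these but Mrgprf, and 2 higher (14.4%), L1cam (0.43 ± 0.13, adjusted p = 0.0129) and Ednrb (0.99 ± 0.32, adjusted p = 0.0226). L1cam did not overlap either, with 13.6 to 17.9 CPM in αGlu BSA and 18.2 to 22.2 CPM in αGlu PA (4.17% of all genes were higher without overlap). Ednrb was therefore the gene of the list that was higher in palmitate in both transfections, by an adjusted p of 0.0118 and 0.0226. Fibroblast markers were lower with palmitate in Ctr cells (8 of 8 tested called lower), as were macrophage (6 of 8) and acinar markers (5 of 7), and in αGlu cells the counts were 5, 1 and 3. Their part in the values of the glial genes was not tested.

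**Figure D4:**
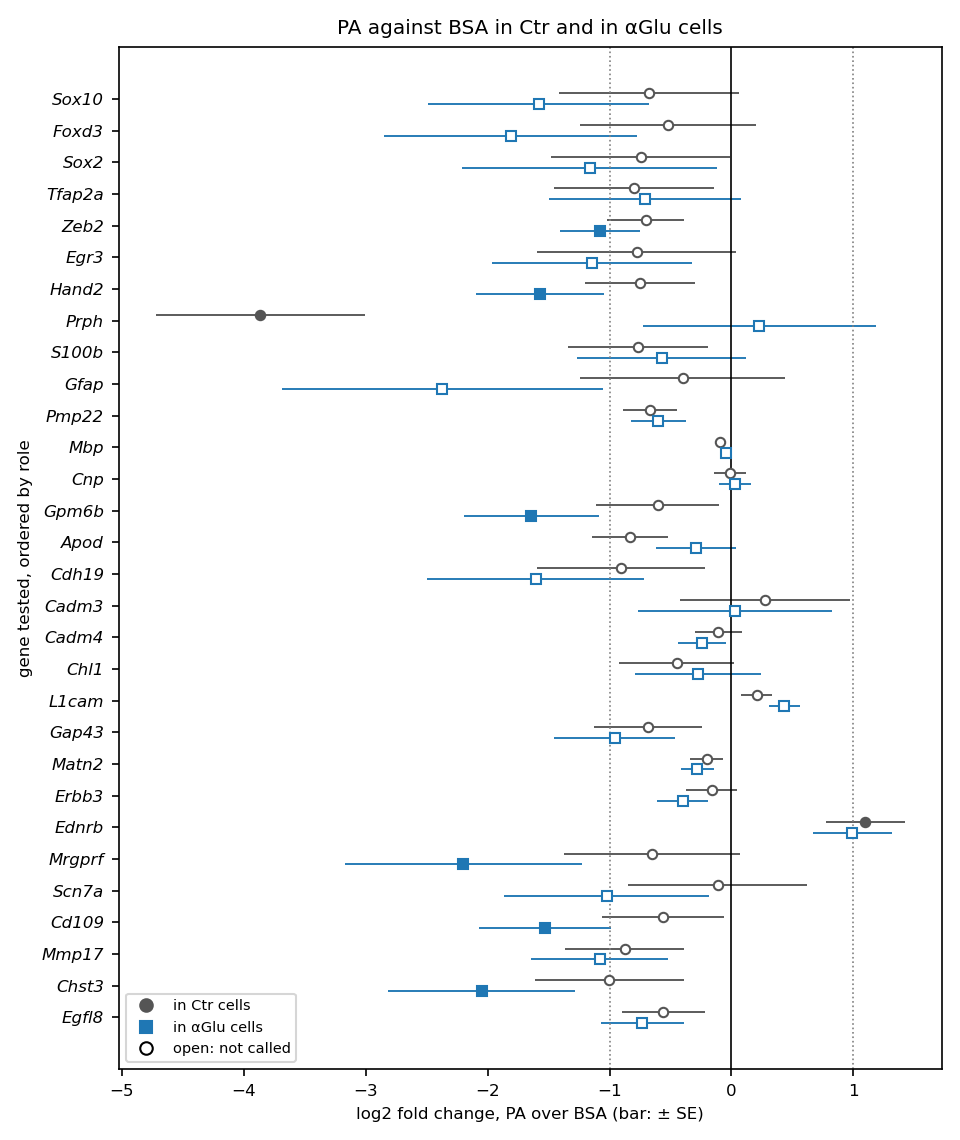
Log2 fold change of PA over BSA in Ctr cells (grey circles) and in αGlu cells (blue squares) for the 30 tested genes by role, with ± SE bars, filled where the gene was called, and dotted lines at fold changes of 2. Prph is far left in Ctr cells, Ednrb lies near 1 in both, and most other genes lie left of 0 with bars that overlap between the transfections.

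Whether palmitate acted differently in αGlu than in Ctr cells was tested as an interaction. Prph was the 1 gene called, higher in αGlu cells (0.427% of all genes tested), and 0 were lower (0.226%). The difference for Prph was 4.09 ± 1.29 log2 units (adjusted p = 0.999), from a fall in Ctr cells against 0.23 ± 0.96 in αGlu cells. Without S9 the interaction called 4 genes (0.898% of all genes in that fit, in either direction), and without S9 and S21 it called 11, all lower (0.903%). Since S9 and S21 were singled out for their high glial levels in Ctr BSA, leaving them out moves the interaction of these genes downwards by construction, and no direction is read from these counts. Between the batches as a whole, 7 genes were higher in batch 2 (1.06% of all genes tested) and 2 were lower (5.32%), the latter being Prph and Erbb3. Erbb3 had means of 52.8 CPM in batch 1 and 16.1 CPM in batch 2 among Ctr BSA libraries. Acinar markers (7 of 7 tested) and ductal markers (4 of 7) were also called lower in batch 2, and their part in the Erbb3 values was not tested.

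The neuronal gene Vip had the most uneven counts of the list. It had 37 counts in S1, 383 in S9 and 85 in S21, all Ctr BSA libraries, 2 counts in S24 of αGlu PA and 0 in the remaining 20. Phox2a was similar at a lower level, with 15 of its 20 Ctr BSA counts in S9. Prph in Ctr BSA stood at 7.93 CPM in S9, 1.59 CPM in S21 and at most 0.644 CPM in the others. S9 and S21, high in these genes, were also high in glial genes. S1 had 2.32 CPM of Sox10, above the Ctr BSA median of 1.89 CPM, and its median gene stood 0.643 log2 units above its mean. The summed level of the separate list of 20 autonomic and enteric neuron genes was ordered differently. S21 was highest of Ctr BSA (400.8 CPM), S9 only in place 4 (320.5 CPM), and S17, the library lowest in most glial genes, above S9 (372.9 CPM). Whether this summed level came from neurons was not tested, so it is not read as a measure of neurons.

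Genes outside the list showed how far the pattern reached. Of 26 further glia and Schwann genes tested, 5 were called lower in αGlu PA and 2 in αGlu BSA, with medians of −0.363 and −0.261. Gjc3, a connexin of myelinating glia, differed by −4.35 ± 1.15 in PA and −3.43 ± 0.94 in BSA, and Kcna1, a potassium channel subunit, by −2.98 ± 0.86 and −3.44 ± 0.81. In the contrast over both media these genes had adjusted p-values of 0.0178 and 0.0151 in edgeR. Vim (−1.43 ± 0.34), Fign (−2.25 ± 0.57) and Sfrp1 (−2.14 ± 0.77) were called in PA, of which Vim is an intermediate filament of many cell types. The 12 tested genes of autonomic and enteric neurons had a median of −0.0278 in PA and −0.0800 in BSA. In either medium 1 of them was called lower, and 1 was lower over both by adjusted p. Whether the levels of these 12 genes came from neurons was not tested. A separate list of neuregulin and endothelin ligands, partner receptors and a processing enzyme had 0 of 6 tested genes called in either medium. Of these, Nrg1, the neuregulin gene, differed by 0.84 ± 0.43 in PA.

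Markers of the other cells of the islet preparation were compared in the same way. In PA, 0 of 10 endocrine, 0 of 8 endothelial, 0 of 8 fibroblast, 0 of 7 acinar and 0 of 7 ductal genes were called, with medians of 0.098, 0.141, 0.28, −0.0533 and 0.0177. Of the macrophage genes, 2 of 8 were called higher in PA (C1qb 2.08 ± 0.87 and C1qc 2.31 ± 0.92) and 3 of 8 were called lower in BSA (Ptprc −1.59 ± 0.60, Lyz2 −1.47 ± 0.63 and Adgre1 −1.36 ± 0.63). Their median was 0.728 in PA, with 8 of 8 above 0, and −0.905 in BSA, with 7 of 8 below 0. The summed level of the endocrine markers ran from 111150 to 151650 CPM in Ctr PA and from 110100 to 156870 CPM in αGlu PA. That of the macrophage markers ran from 84.1 to 128 CPM and from 80.3 to 138 CPM. Their part in the glial values was not tested. No marker of these 6 lists was at 0 throughout any of the 4 groups. The crest list without glial genes, which includes melanocyte genes, had 0 of 10 called in either medium.

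**Figure D5:**
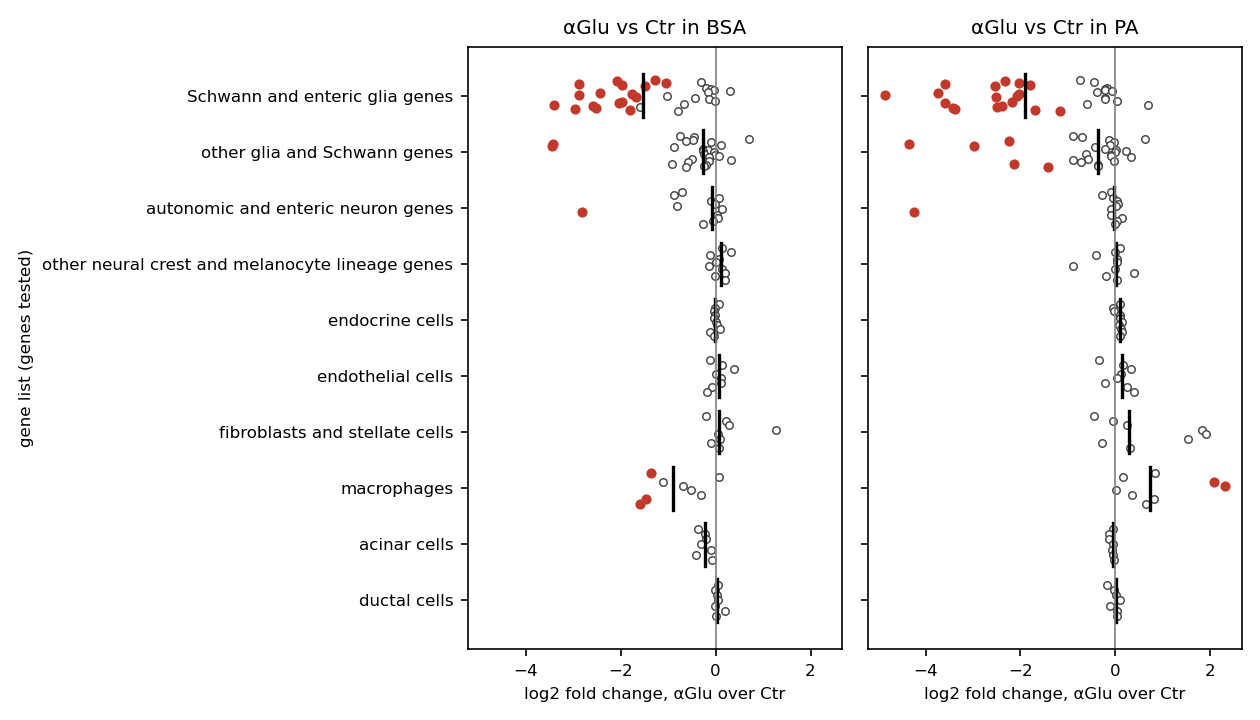
Log2 fold change of αGlu over Ctr in BSA (left) and in PA (right) for the tested genes of each list, 1 point a gene, filled red where called, with the list's median as a black bar. Glial genes extend to −4.86 in PA, Gjc3 of the other glia reaches −4.35, and endocrine, endothelial, acinar and ductal genes stay near 0.

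Finally, the genes were ordered by how closely they followed Sox10. The measure was Pearson's r of log2 CPM over the 24 libraries after removing group and batch means, given as a description without a p, since the points share libraries and depth. Cdh19 (0.940), Chl1 (0.922), Foxd3 (0.878), Gfap (0.854) and Gap43 (0.848) were nearest. S100b (0.821), Sox2 (0.820), Apod (0.811) and Hand2 (0.807) came next. Apod thus followed Sox10 within groups, though it was called in BSA alone. At the other end were Egfl8 (−0.0167), Ednrb (−0.0441), Egr3 (−0.0679) and Mbp (−0.346), which did not follow Sox10.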

How the data were processed

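RNA of dispersed mouse islet cells was sequenced by the authors as stranded mRNA libraries, and the deposited table was made with the QIAGEN RNA-seq Analysis Portal on GRCm38 per the submitters' processing notes. No source used here names the aligner or annotation. The deposited count of reads on exons was tested, with empty cells read as 0. The TPM values computed by the authors served only to set genes side by side, and the deposited CPM and RPKM columns were left out. A row without a gene, with 0 counts, was dropped.

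Counts were analysed with edgeR 4.0.16 under R 4.3.3, which loads limma 3.58.1. Genes were filtered by filterByExpr at a minimum count of 10, scaled by TMM and fitted over all 24 libraries, with the 4 groups and the batch as model terms. This left 15916 genes with 99.95% of the counts, and the median total was 26701201.5. The biological coefficient of variation was 15.4%. Standard errors were derived from the F statistic. Two-sided quasi-likelihood tests compared αGlu with Ctr in each medium and PA with BSA in each transfection, together with the interaction, and DESeq2 1.42.0 was an alternative. The contrast over both media, the differences between batches and the fits without S9 and S21 were added after the data had been seen. Log2 CPM used a prior count of 2. The tests were tried on simulated data first. Libraries of a group are separate experiments per the study's methods. PCR reads without molecular identifiers are not independent molecules, so counting error understates the spread.

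Every gene of the list was named by its symbol. The list, its roles and the other lists were chosen with earlier results of these data known, so no pattern here is independent support. Of each other list, at most the 3 genes of smallest p in the αGlu comparison in PA were to be named. Kcna1, Sfrp1, Mag, Nrg1, Ptprc, Lyz2 and Adgre1 fall outside that rule and were chosen after their values were seen. Some genes of the other lists are not reported here. Alternatives are given in the closing section.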

Additional observations from a re-analysis of the deposited data

Results flagged for a closer look

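Within groups of 6 libraries, Dixon's test at the 95% level marked 7 single values, all low, among 120 groups tested. Chance marks about 1 in 20 groups, or 6 here, so these values are about as many as chance gives. Zeb2 stood at 3.31 CPM in αGlu BSA S10 and at 1.65 CPM in αGlu PA S12. Egr3 was at 0 CPM in Ctr BSA S9, and Cadm3 at 0 CPM in αGlu BSA S10. S100b was at 0.046 CPM and Cd109 at 0.368 CPM in Ctr BSA S17. Egfl8 was at 0.0797 CPM in Ctr PA S11.

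The difference of the palmitate response between transfections passed the call for Prph (4.09 log2 units higher in αGlu cells, by the interaction test). Differences between the batches (batch 2 minus batch 1) passed the call for several genes. For the αGlu effect in PA they were −2.09 for Hand2, −2.68 for Gpm6b, −3.47 for Scn7a and −2.35 for Cd109, and for the αGlu effect in BSA 3.91 for Gfap. For the PA effect in Ctr cells they were 2.95 for Tfap2a, 1.79 for Hand2, 3.81 for Gfap, 1.21 for Pmp22, 2.26 for Gpm6b, 4 for Scn7a, 2.19 for Cd109 and 2.61 for Chst3. None of these differences had an adjusted p below 0.05 in edgeR.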

How the results depend on the processing

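Counts of called genes were recomputed under other scalings, filters, tools and sets of libraries, and the log2 fold change of no gene of the list in the αGlu comparison in PA reversed among those called. The αGlu comparison in PA (18 calls) gave 10 in batch 1 alone, 0 by adjusted p and 17 to 18 without single libraries, and its median (−1.91) was −0.618 in batch 1 alone and −1.95 to −1.62 without single libraries. The αGlu comparison in BSA (17 calls) gave 2 in batch 2 alone, 2 without S9 and S21, 0 by adjusted p and 13 to 20 without single libraries. PA against BSA in Ctr (2 calls) gave 4 with no filter, 1 with a stricter filter, 1 with the compared groups alone, 16 in batch 1 alone, 0 in batch 2 alone, 4 by adjusted p and 1 to 7 without single libraries. Its median (−0.628) was −0.865 to −0.106 without single libraries, and it reversed to 0.103 in batch 2 alone and 0.184 without S9 and S21. PA against BSA in αGlu (6 calls) gave 11 with no filter, 3 in batch 1 alone and 5 to 8 without single libraries. The interaction (1 call) gave 3 with no filter, 0 with a stricter filter, 2 in batch 1 alone, 5 in batch 2 alone, 0 by adjusted p, 11 without S9 and S21 and 1 to 4 without single libraries. Over both media, 11 genes past an adjusted p of 0.05 became 18 in DESeq2, 18 with no filter, 0 with no batch term, 0 in batch 1 alone, 0 in batch 2 alone, 0 without S9 and S21 and 8 to 17 without single libraries, and the 18 calls became 17 to 21. The cause of these shifts was not tested, except that a stricter filter tests fewer genes and a single batch holds fewer libraries. Leaving out S9 and S21, singled out for high glial levels, also lowers the Ctr BSA level of these genes by construction. Many called genes had under 1 CPM, so fold changes of Gfap, Foxd3, Mrgprf and Chst3 rest on few counts in αGlu PA. No paired analysis was made, because the labels do not state which libraries of different groups share a preparation. The groups of each replicate did share an animal per the study's methods, and this pairing was not used.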
